A study of Mus musculus with 12 samples.

Results

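Foxq1, Foxf2 and Foxc1 are 3 forkhead transcription factor genes that lie side by side on mouse chromosome 13, and A530084C06Rik is a protein-coding gene model on the opposite strand of Foxq1. The 4 genes are 4 of the 55450 genes in the count table. They were found by symbol. Foxq1 was selected on its liver counts, as one of 2 genes called between knockout and wild-type liver when the replicate number was kept as a block. The others were chosen by their position beside it. The liver difference of Foxq1 between genotypes is therefore given here as a description and not as a result with a test.

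Each of the 12 libraries was made from total RNA of a brain or a liver. The mice were males, 7 to 9 weeks old. The groups were brain and liver of wild-type mice (Vaultrc5+/+, named flx in the titles) and of mice lacking the vault RNA gene Vaultrc5 (Vaultrc5-/-), with 3 libraries in each of the 4 groups. The labels state neither whether a brain and a liver library with the same number came from 1 mouse nor whether numbered mice shared a litter or a day. P-values measure only the spread between these libraries, which may be technical.

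Forkhead proteins bind DNA through a winged-helix domain that is shared across the family. Foxq1 is known for the satin coat of mice that lack it, for expression in endothelial cells of brain vessels, and for a part in hepatic glucose production, where it has been placed against Foxo1. Foxf2 is known for its role in the pericytes and endothelium of brain vessels. Foxc1 is known for its role in the meninges, brain mural cells and the front of the eye.

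Brain libraries held 14844937 to 18567362 counts and liver libraries 23247425 to 27155478. The floor used here, 3 counts in a library, equals 0.165 to 0.198 CPM in brain (CPM being counts scaled to the TMM library size) and 0.110 to 0.127 CPM for the livers. Vaultrc5 had 33, 39 and 48 counts in wild-type liver, 4, 1 and 4 in wild-type brain and 0 in each knockout library. The summed level of 6 neuron markers was 4226 to 5721 CPM in brain and 19.4 to 26.2 CPM in liver, and that of 7 hepatocyte markers was 46507 to 75094 CPM in liver and 1.10 to 586 CPM in brain. The brain libraries stood apart in choroid plexus markers. Their sum over 6 genes was 41.5, 4.68 and 66.5 CPM in wild-type brains 1 to 3 and 77.0, 7.41 and 11.5 CPM in knockout brains 1 to 3. The hepatocyte list, which includes Ttr, had sums in the same order of brains within each genotype. These were 219, 1.10 and 407 CPM in wild-type brains 1 to 3 and 586, 3.88 and 4.88 CPM in knockout brains 1 to 3. The part of choroid plexus in them was not tested. In bulk tissue, fewer cells of a type and less RNA per cell cannot be told apart.

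In the GRCm38 build with the GENCODE M21 annotation, Foxq1 (ENSMUSG00000038415.10) spans 31556134 to 31560976 on the plus strand of chromosome 13, as 1 exon of 4843 bases. Foxf2 (ENSMUSG00000038402.2) follows after a gap of 64.84 kb, from 31625816 to 31631403 on the plus strand, with 2 exons of 2363 bases in all. Foxc1 (ENSMUSG00000050295.4) lies a further 175.23 kb along, from 31806633 to 31812476 on the plus strand, with 1 exon of 5844 bases. The 3 genes thus point the same way. A530084C06Rik (ENSMUSG00000090863.1) is 1 exon of 3200 bases on the minus strand, from 31556134 to 31559333, and 100% of it lies within the exon of Foxq1, covering 66.1% of that exon.

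The coding sequences of Foxq1, Foxf2 and Foxc1 hold 400, 446 and 553 codons. The proteins translated from them were 49.1% identical over 169 aligned residues for Foxq1 and Foxf2, 45.5% over 222 for Foxf2 and Foxc1, and 39.4% over 269 for Foxq1 and Foxc1. The longest run of residues identical in all 3 was 10 residues, inside the forkhead domain. Its codons are shown because they show how alike the genes are where they are most alike, which bears on whether reads can be told apart. The bases are those of the GENCODE M21 transcripts. Capitals mark the 7 of 30 bases that differ among the genes, written 5′ to 3′ on the plus strand at chr13:31559259-31559288 (Foxq1), chr13:31626377-31626406 (Foxf2) and chr13:31807439-31807468 (Foxc1).
Foxq1: aagccCccAtacTCCtacatcgcTctCatc
Foxf2: aagccTccTtacTCGtacatcgcGctCatc
Foxc1: aagccGccCtacAGCtacatcgcTctTatc

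The next longest run of identical residues in all 3 was 7. It is shown with the 4 codons before it, 33 bases in which 8 bases and 2 of 11 residues differ, at chr13:31559394-31559426, chr13:31626512-31626544 and chr13:31807574-31807606. Capitals again mark the bases that differ.
Foxq1: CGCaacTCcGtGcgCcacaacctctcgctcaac
Foxf2: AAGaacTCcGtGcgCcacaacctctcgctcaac
Foxc1: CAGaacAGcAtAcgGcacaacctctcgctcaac

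Both stretches hold bases that tell the genes apart, and the authors' expected counts were whole numbers for all 4 genes in all 12 libraries, as they are where no read is split between genes. The overlap on opposite strands is a separate matter. The first 42 bases of the Foxq1 coding sequence at chr13:31558917-31558958 are shown with the same stretch read on the strand of A530084C06Rik. The start codon of Foxq1 and its complement are in capitals. The stretch lies in the 352 coding bases that the genes share in opposite directions.
Foxq1: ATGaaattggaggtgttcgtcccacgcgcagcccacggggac
A530084C06Rik: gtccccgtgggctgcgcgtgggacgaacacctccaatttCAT

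The library kit keeps the strand, but whether the authors counted by strand is not given in the sources used here. Without strand, reads of Foxq1 and A530084C06Rik cannot be told apart in their shared bases.

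The forkhead cluster divided by tissue. To compare brain with liver, libraries of both tissues were scaled together within a genotype and tested with the edgeR quasi-likelihood test. Foxq1 was higher in liver, whereas Foxf2 and Foxc1 were higher in brain, in both genotypes.

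Foxq1 had 67, 62 and 47 counts in wild-type brains and 1324, 825 and 248 counts in wild-type livers. It had 44, 57 and 49 counts in knockout brains and 3094, 1734 and 501 in knockout livers. Every liver library was above every brain library. On the joint scale the wild-type means were 43.2 CPM in liver and 2.53 CPM in brain, a 17.1-fold difference, and the knockout means were 95.4 and 2.27 CPM, a 42.0-fold difference. The log2 fold change of brain over liver was -4.09 ± 0.62 (SE) in the wild type (adjusted p = 0.000471) and -5.39 ± 0.66 in the knockout (adjusted p = 0.000166). Without liver 1, the highest of each genotype, these were -3.44 (adjusted p = 0.000917) and -4.80 (adjusted p = 0.000472). The liver counts that chose Foxq1 enter both comparisons, so the larger difference in the knockout is no separate result.

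Foxf2 was a brain transcript in these data. It had 46, 49 and 45 counts in wild-type brains and 49, 59 and 61 in knockout brains. In liver it had 0 counts in each wild-type library and in knockouts 2 and 3, and 3 counts in knockout 1. Against a floor of 3 counts in each liver library, wild-type brain was at least 12.6-fold higher. In the knockout, with 3 liver counts in all, the ratio of pooled counts was 47.1 with a 95% exact binomial interval of 15.8 to 230, which covers counting error only. The edgeR adjusted p was 8.5e-05 in the wild type and 0.000235 in the knockout. Foxf2 passed the low-count filter of these tests through its brain counts alone, so both p-values are a description beside the counts. Leaving out knockout liver 1, the only liver library with Foxf2 counts, leaves all Foxf2 liver counts at 0.

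Foxc1 had 162, 174 and 121 counts in wild-type brains and 107, 129 and 149 in knockout brains. Wild-type livers had 1, 5 and 7 counts and knockout livers 0, 5 and 5, so liver lay at or near the floor. Scaled to library size, the ratio of pooled counts of brain over liver was 28.6 in the wild type (95% exact binomial interval 16.5 to 54.0) and 32.2 in the knockout (17.3 to 67.6), counting error only. The log2 fold change of brain over liver was 4.81 ± 0.44 (adjusted p = 2.86e-05) and 4.95 ± 0.58 (adjusted p = 0.000128). Without knockout liver 1, where Foxc1 had 0 counts, the latter was 4.33 (adjusted p = 5.03e-05). Foxc1 too passed the low-count filter of these tests through its brain counts alone, so the fitted values are a description beside the counts.

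A530084C06Rik was low in both tissues. Its counts were 13, 13 and 12 in wild-type brains, 12, 4 and 13 in knockout brains, 5, 23 and 9 in wild-type livers and 15, 11 and 12 in knockout livers. The log2 fold change of brain over liver was -0.24 ± 0.52 (adjusted p = 0.692) in the wild type and -0.63 ± 0.48 (adjusted p = 0.262) in the knockout. With scaling to library totals these became 0.60 and 0.23, so no direction is given.

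Many genes differed between these tissues. Of 18850 genes tested in the wild type, 43.9% were called higher in brain and 34.7% higher in liver, and of 18785 in the knockout, 43.5% and 35.2%. A call for a single gene is thus near the common case. Over all genes tested, the median log2 fold change was 0.21 in either genotype, and the median of its absolute value was 1.55 in the wild type and 1.54 in the knockout. Scaling to library totals moved that median to 1.05 in the wild type and 1.07 in the knockout and moved the wild-type split from 8275 higher in brain and 6542 higher in liver to 11623 and 3999 (knockout: from 8178 and 6611 to 11614 and 3887). Under it the log2 fold changes of Foxq1 were -3.25 and -4.51, and those of Foxc1 were 5.63 and 5.80, so that both stayed on their side.

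**Figure D1:**
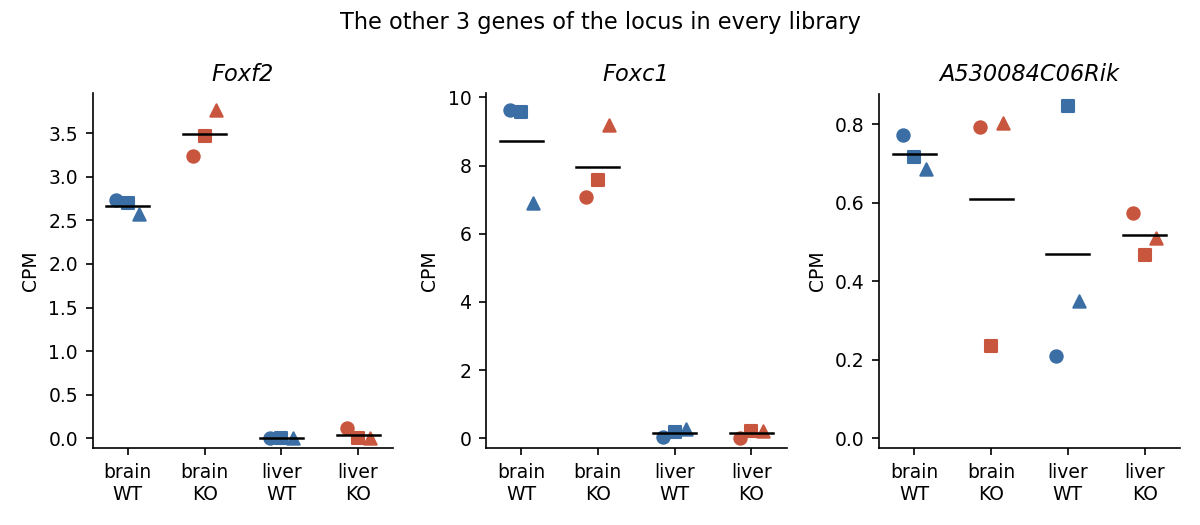
CPM (scaled within each tissue) of Foxf2, Foxc1 and A530084C06Rik in all 12 libraries. Circles, squares and triangles are replicates 1, 2 and 3, blue is wild type, red is knockout and the bar is the group mean. Foxf2 and Foxc1 sit near 0 in liver, and for Foxf2 the 3 knockout brains (3.23 to 3.77 CPM) lie above the 3 wild-type brains (2.57 to 2.74 CPM), a lack of overlap found in 4.24% of tested brain genes.

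The pattern was set against the rest of the family. The table held 44 forkhead genes, and levels between genes are given as CPM per kb of exon, averaged over the 6 libraries of a tissue. In liver the order began with Foxa3 at 22.6, Foxn3 at 13.9, Foxo3 at 12.7, Foxq1 at 10.6, Foxa2 at 9.39 and Foxa1 at 8.35 CPM per kb. Foxa1, Foxa2 and Foxa3 are pioneer factors of the liver, and Foxo3 is a target of insulin signalling. Foxq1 ranged from 1.99 to 24.5 CPM per kb over the 6 livers, which overlaps each of those 5 genes, so its 4th place is a mean and not a stable rank. Within single livers it ranked 5th, 8th and 15th in wild types 1 to 3 and 1st, 2nd and 12th in knockouts 1 to 3. Foxc1 was 22nd and Foxf2 25th in liver.

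In brain, forkhead genes at high levels included Foxo3 at 21.9, Foxk2 at 19.7, Foxk1 at 11.9 and Foxp1 at 11.4 CPM per kb. The cluster genes followed each other far below, with Foxc1 in 16th place at 1.43, Foxf2 in 17th at 1.30 and Foxq1 in 18th at 0.667 CPM per kb. Foxq1 was 18th in each of the 6 brains. The ranges of Foxc1 (1.18 to 1.65) and Foxf2 (1.09 to 1.59 CPM per kb) overlapped, and both lay above that of Foxq1 (0.554 to 0.823 CPM per kb). The order of Foxc1 and Foxf2 differed by genotype. Foxc1 was above Foxf2 in each of the 3 wild-type brains and below it in each of the 3 knockout brains, a difference that was not tested. In knockout brain 3 they were nearly level, Foxc1 at 1.57 and Foxf2 at 1.59 CPM per kb, from 149 and 61 counts. A530084C06Rik stood at 0.226 ± 0.0139 (SD, n = 3) in wild-type and 0.191 ± 0.101 CPM per kb in knockout brain, below the 3 forkhead genes.

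Of the 24 other forkhead genes tested between tissues in the wild type, 10 were called higher in brain, 7 higher in liver and 7 in neither direction. In the knockout these counts were 11, 8 and 5. Of all genes tested, 43.9% were called higher in brain and 34.7% higher in liver in the wild type. The knockout shares were 43.5% and 35.2%, so the forkhead counts are no result about the family. The 7 called higher in wild-type liver, as Foxq1 was, are named to place it. Foxa1 had 0 counts in every brain library, and Foxa2 and Foxa3 had at most 1 and 3. Foxn3, Foxo1, Foxo4 and Foxf1 were counted in brain too, as Foxq1 was, with wild-type log2 fold changes of brain over liver of -1.16, -1.82, -1.28 and -2.05 beside -4.09 for Foxq1.

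**Figure D2:**
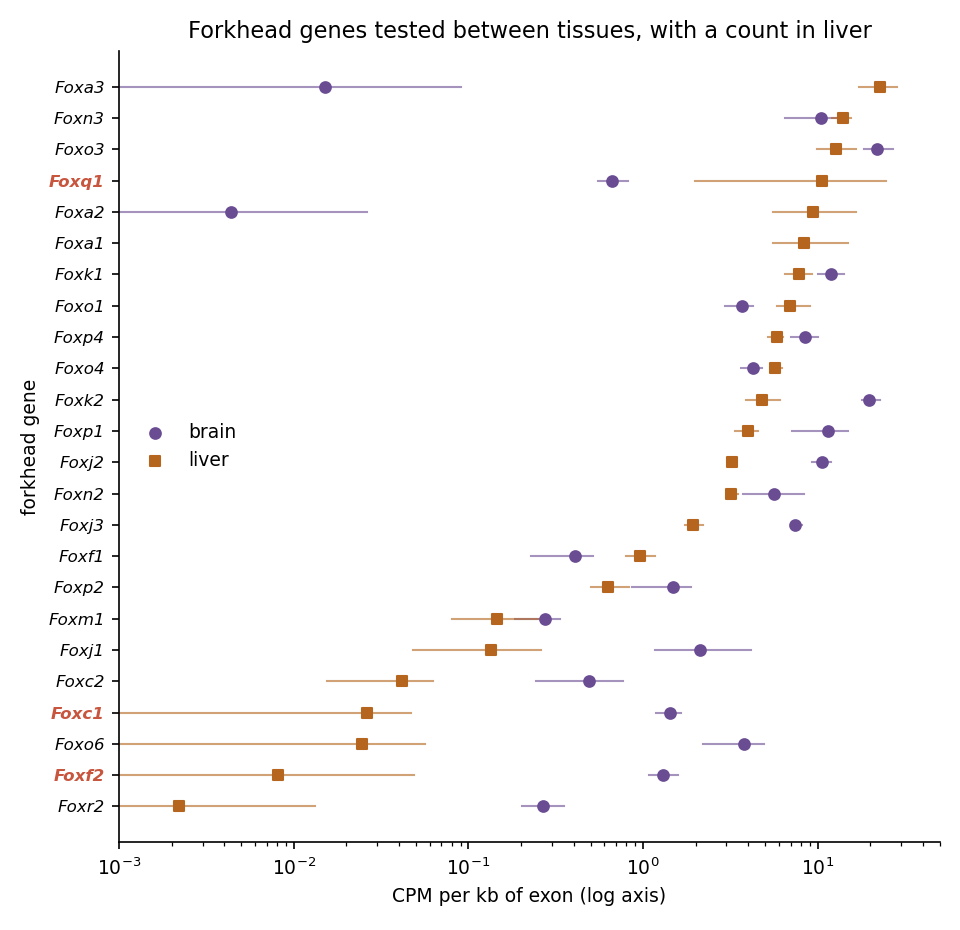
CPM per kb of exon (log axis) of the 24 forkhead genes tested between tissues that had a count in liver, scaled within each tissue. Symbols are means over the 6 libraries of a tissue, lines run from the lowest to the highest library, a line that meets the left edge includes a library at 0, and a tissue with no symbol is at 0 in all 6 libraries. The liver range of Foxq1 (1.99 to 24.5) is the widest among the 6 forkhead genes with the highest liver means.

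To see how Foxq1 differed between the genotypes, its level was followed through the numbered libraries. In wild-type livers 1, 2 and 3 it was 55.5, 30.4 and 9.64 CPM (31.8 ± 23.0, SD, n = 3), and in knockout livers 1, 2 and 3 it was 118, 73.7 and 21.3 CPM (71.1 ± 48.6, SD, n = 3). The groups overlapped: knockout 3 lay below wild types 1 and 2. Over the 9 pairs of a knockout and a wild-type liver, the knockout was higher in 7.

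Libraries with the same number moved together. Number 1 was the highest and number 3 the lowest in both genotypes, 5.76-fold apart in the wild type and 5.57-fold apart in the knockout. Within a number, the knockout was 2.13-, 2.43- and 2.21-fold above the wild type, with a mean log2 ratio of 1.17 ± 0.10 (SD, n = 3 pairs). Foxq1 thus varied within a genotype by more than it differed between them, and the difference within numbers was nearly the same in size.

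Both spreads were set beside those of the 15278 liver genes for which they were computed. The pooled SD of log2 CPM within genotypes was 1.28 for Foxq1 and 0.202 for the median gene, and 1.54% of the genes had a higher one. The SD of the 3 numbered differences was 0.097 for Foxq1 and 0.223 for the median gene, and 17.3% of the genes had a lower one. The blocked test that chose Foxq1 favours genes with a small spread of these differences, so the latter place is a description of how it was chosen.

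The test depended on which of these spreads it used. Without the block, the liver log2 fold change of knockout over wild type was 1.16 ± 0.87 (SE), with an edgeR adjusted p of 0.992, and 0 of 15329 genes (0%) were called; 536 had an unadjusted p under 0.05, and the DESeq2 Wald test called 10 genes. With the replicate number as a block it was 1.17 ± 0.08 with an adjusted p of 0.0132, and 2 of 15329 genes (0.013%) were called, which are Foxq1 and G0s2 (adjusted p = 0.0214). Just outside the threshold were Gadd45g, Oaz1-ps and Abcd2, each at an adjusted p of 0.0866. This is the comparison that chose Foxq1, and the values say only how it was chosen. With 1 number left out of both genotypes the blocked value stayed at 1.11 to 1.21, while its adjusted p rose to between 0.0773 and 0.121. Without the block, the value was 1.83 without wild-type liver 1, 1.59 without knockout liver 3, 0.73 without wild-type liver 3 and 0.58 without knockout liver 1.

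**Figure D3:**
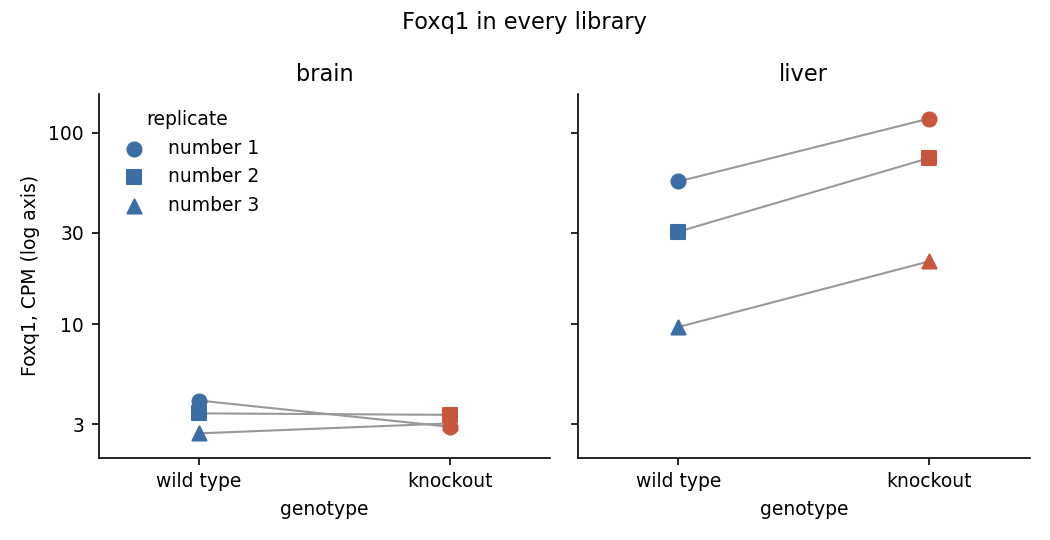
Foxq1 in CPM (log axis, scaled within each tissue) in every library, with a grey line joining the wild-type and knockout libraries of the same number. In liver the 3 lines run nearly in parallel (2.13-, 2.43- and 2.21-fold) from starting points of 55.5, 30.4 and 9.64 CPM, and in brain they cross within 2.68 to 3.98 CPM.

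In brain, where the choice of Foxq1 used no value, its level was 3.98, 3.41 and 2.68 CPM in wild types 1 to 3 and 2.90, 3.35 and 3.03 CPM in knockouts 1 to 3. The groups overlapped, the ratios by number were 0.729, 0.982 and 1.13, and the fold change was -0.12 ± 0.22 on the log2 scale (edgeR adjusted p = 1.00). Without wild-type brain 1 it was 0.00852, so its sign rests on that library. The difference between the liver and brain effects of the knockout was 1.28 ± 0.94 on the log2 scale (adjusted p = 1.00), with 0 of 20141 genes (0%) called; 489 had an unadjusted p under 0.05, and the DESeq2 Wald test called 1. With the replicate number within tissue as a block it was 1.27 ± 0.17 (adjusted p = 0.156), and 0.00993% of genes were called. Foxq1 did not pass in either fit. The liver effect that chose Foxq1 is one side of this difference.

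Foxf2 levels in brain did not overlap between genotypes, as was so for 764 of 18011 tested brain genes with a unique symbol (4.24%), 339 of them (1.88%) with the knockouts higher. It stood at 2.74, 2.70 and 2.57 CPM in wild-type brains 1 to 3 (2.67 ± 0.0869, SD, n = 3) and at 3.23, 3.47 and 3.77 CPM in knockout brains 1 to 3 (3.49 ± 0.267, SD, n = 3). The ratios by number were 1.18, 1.29 and 1.47. The log2 fold change of 0.39 ± 0.18 did not pass over all genes: its edgeR adjusted p was 1.00, and 0 of 18075 genes (0%) were called in brain, where 119 had an unadjusted p under 0.05 and the DESeq2 Wald test also called 0.

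Foxc1 in brain was 9.63, 9.58 and 6.91 CPM in the wild type and 7.06, 7.59 and 9.20 CPM in the knockout. The groups overlapped, with wild type 3 below all knockouts, and the log2 fold change was -0.13 ± 0.19 (edgeR adjusted p = 1.00). For A530084C06Rik the values were -0.25 ± 0.49 in brain (adjusted p = 1.00) and 0.12 ± 0.52 in liver (adjusted p = 0.999). Both rest on single libraries, since the brain value was 0.14 without knockout 2 and the liver value was -0.21 without wild type 1 and -0.05 without wild type 3. Foxf2 and Foxc1 did not pass the low-count filter in liver. With no low-count filter they were tested and not called (adjusted p = 0.898 and 0.988), nor in one fit of all 12 libraries (adjusted p = 1.00 for both), and at their liver counts no fold change is given.

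A530084C06Rik did not follow Foxq1 from library to library. Its counts came to 0.378% to 3.63% of those of Foxq1 in liver and to 7.02% to 27.3% in brain. Its highest liver count, 23, was in wild type 2 and its lowest, 5, in wild type 1, where Foxq1 was higher than in wild type 2.

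The genes around the cluster were then examined. Within 1 Mb on either side the table held 35 other genes, of which 18 had a count in some library, 8 were tested in brain and 6 in liver. None was called between genotypes, with or without the block, against 0% and 0.013% of all genes. Their median log2 fold change was 0.00 in each tissue, as for all genes, and they ranged from -0.23 to 0.29 in brain and from -0.17 to 0.58 in liver. On the side of Foxq1 the nearest tested genes were Exoc2, which encodes an exocyst subunit (-0.04 ± 0.09 in brain and -0.15 ± 0.16 in liver), the lincRNA Gm29675 (-0.15 ± 0.30 in brain) and Irf4, a transcription factor of immune cells (0.41 ± 0.34 in liver). On the side of Foxc1 they were Gmds, an enzyme of GDP-fucose synthesis (-0.23 ± 0.17 in brain and 0.07 ± 0.32 in liver), Gm48883 (0.29 ± 0.39 in brain) and Gm48885 (0.09 ± 0.19 in brain). The last 2 are models inside the span of Gmds on its strand, so reads of Gmds could count for them. Each of these values lay within about 1.5 SE of 0.

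**Figure D4:**
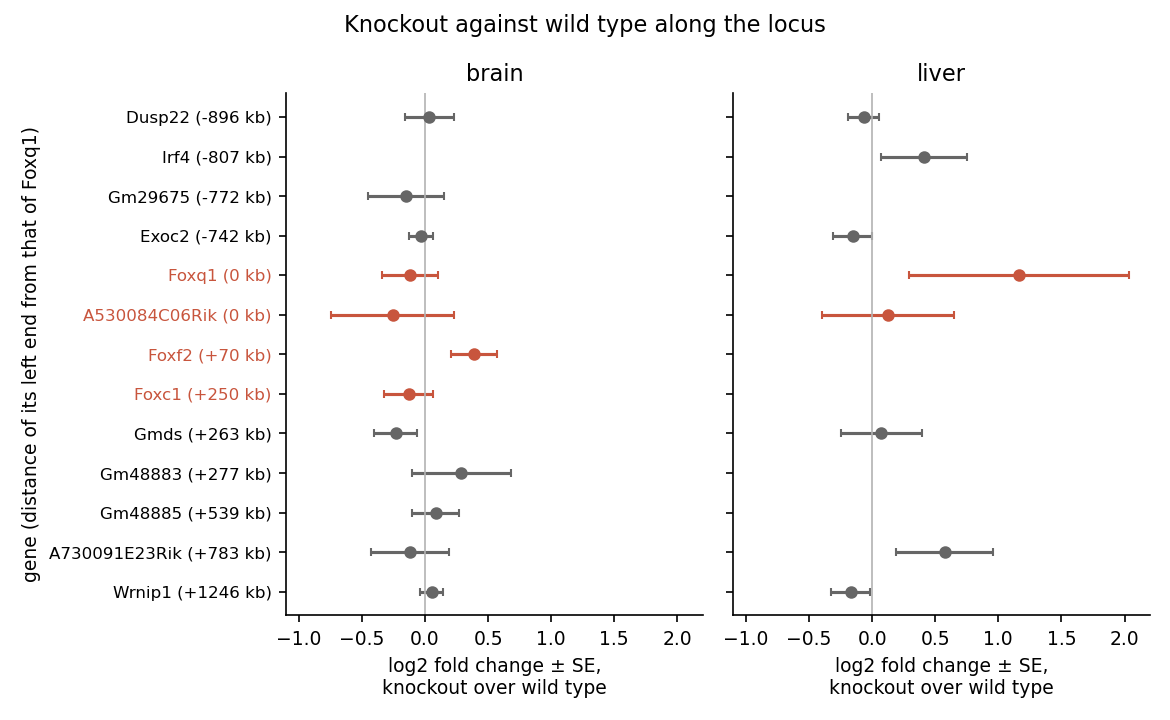
Log2 fold change of knockout over wild type with its SE (edgeR, no block) for each tested gene within 1 Mb of the cluster, in the order of position, with the cluster in red. The liver value of Foxq1 (1.16 ± 0.87) is the largest and has the widest error in liver, and the neighbours in liver lie between -0.17 and 0.58.

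Other forkhead genes were compared between genotypes in the same fits. None of the 21 others tested in brain and none of the 17 in liver was called, with or without the block, and their medians were -0.01 and 0.04 on the log2 scale. Over all genes the shares called were 0% in either tissue without the block and 0.013% in liver with it, so these counts are no result about the family.

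The genes whose levels followed Foxq1 most closely over the 6 livers were found by Pearson's r of log2 CPM among 13326 other genes at a mean of 1 CPM or more. The livers share the pattern by number given above, and r is a description with no test. Thpo (thrombopoietin, a liver hormone for platelets) was closest at r = 0.99, followed by Mcur1, Pnkd, 2610507B11Rik, Tank, Zyg11a, Gm38012 and Socs3 (r = 0.98). Most of these moved little, with Thpo between 9.68 and 14.2 CPM. Socs3, a feedback inhibitor of cytokine signalling, had a range like that of Foxq1. It was 14.0, 7.91 and 3.07 CPM in wild types 1 to 3 and 24.8, 22.3 and 4.63 CPM in knockouts 1 to 3. Of the 13326 genes, 241 (1.81%) had r of at least 0.9 and 255 (1.91%) had r of at most -0.9.

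Lists of liver genes known to vary with time of day or feeding were read the same way. The circadian clock list held 16 genes. Arntl, Clock and Npas2, which encode the activating arm of the clock, had levels that followed those of Foxq1 over the 6 livers (r = 0.92, 0.91 and 0.98), whereas the levels of the clock-controlled genes Per1, Dbp, Tef and Nr1d2 were low where Foxq1 was high (r = -0.92, -0.93, -0.94 and -0.93). Other clock-controlled genes of the list had positive r, with Cry1 at 0.75, Nfil3 at 0.60 and Nr1d1 at 0.38. Npas2 was 3.40, 1.18 and 0.389 CPM in wild types 1 to 3 and 5.66, 2.93 and 0.594 CPM in knockouts 1 to 3. Per1 was 11.1, 26.4 and 64.1 CPM in wild types 1 to 3 and 9.45, 13.8 and 71.6 CPM in knockouts 1 to 3. In both genotypes number 3 thus had the lowest Npas2 and the highest Per1.

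Number 3 was the lowest library of both genotypes for 5 of the 16 clock genes (Arntl, Clock, Npas2, Cry1 and Nfil3) and the highest of both for 9 (Per1, Per2, Per3, Cry2, Nr1d2, Dbp, Tef, Hlf and Ciart). Over all 13326 genes the shares were 17.9% and 17.7%. Of the 16 genes of insulin signalling and gluconeogenesis, number 3 was the lowest of both for 0 and the highest of both for 10, among them Igfbp1 (31.7, 58.2 and 93.3 CPM in wild types 1 to 3, and 18.4, 31.7 and 170 in knockouts 1 to 3), Pck1, G6pc, Irs2 and Foxo1. The median r with Foxq1 was -0.82 for the clock list and -0.78 for the insulin list, and 0.01 over all genes. The part of either in the Foxq1 values was not tested.

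Between genotypes in liver, 0 of the 16 clock genes and 0 of the 16 insulin genes were called, with or without the block, at medians of -0.08 and -0.11 without it. The groups overlapped for every gene of both lists, where 9.84% of 15278 tested liver genes with a unique symbol did not overlap. Within numbers, Npas2 was 1.67-, 2.49- and 1.53-fold and Socs3 was 1.77-, 2.82- and 1.51-fold higher in the knockout, and their blocked log2 differences were 0.92 ± 0.24 and 1.00 ± 0.18. Both genes are named for their likeness to Foxq1 over these livers, so this follows from the choice and is no separate result. Per1 was 0.854-, 0.525- and 1.12-fold, so it did not keep one direction.

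**Figure D5:**
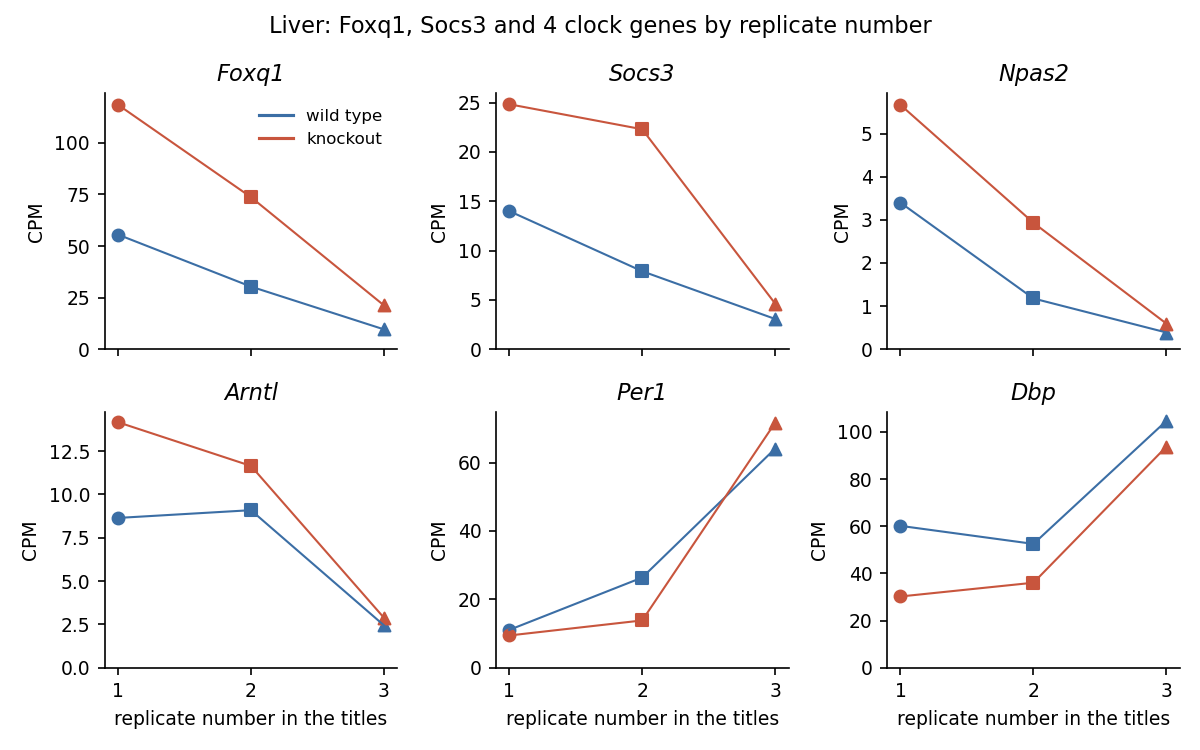
CPM in liver (linear axes from 0) of Foxq1, Socs3 and the clock genes Npas2, Arntl, Per1 and Dbp against the replicate number in the titles, with wild type in blue and knockout in red. Lines join libraries of one genotype and stand for no time course. Number 3 is lowest for Foxq1, Socs3, Npas2 and Arntl and highest for Per1 and Dbp in both genotypes.

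Markers of other liver cells were read beside Foxq1. All 7 macrophage markers had positive knockout differences, with a median of 0.52 on the log2 scale, and 0 were called. Their sum was 101 to 137 CPM in wild-type and 120 to 242 CPM in knockout livers, highest in knockout 2. The r with Foxq1 over the 6 livers was positive for all 6 macrophage markers with a mean of at least 1 CPM (0.35 to 0.68, median 0.49). Cd68 and P2ry12 were higher in all 3 knockout than in all 3 wild-type livers, as were 4.73% of tested liver genes. All 8 endothelial markers had positive knockout differences too, at a median of 0.13 with 0 called and sums of 251 to 310 and 288 to 307 CPM. The 6 cholangiocyte markers had a median of 0.20 with 0 called, and sums of 28.2 to 40.0 and 25.5 to 117 CPM. The 7 hepatocyte markers had a median of -0.14 with 0 called. The median r with Foxq1 was -0.23 for the endothelial, 0.39 for the cholangiocyte and -0.41 for the hepatocyte markers with a mean of at least 1 CPM. Of 11 tested stellate and mural markers, 9 had positive knockout differences, at a median of 0.08 with 0 called. Their sum was 1662 to 1805 CPM in wild-type and 1615 to 2068 CPM in knockout livers. Their median r with Foxq1, 0.54 (-0.90 to 0.66, 4 of 11 negative), was above that of the macrophage markers. The 7 tested fibroblast markers had a median of -0.07 with 0 called and a median r of -0.29. None of these lists was at 0 in liver, and their part in the Foxq1 values was not tested.

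The same was done for the vessel and meningeal cells in which Foxf2 and Foxc1 are known. In brain, 0 of 11 tested mural, 0 of 8 endothelial and 0 of 8 meningeal and fibroblast markers were called between genotypes, at medians of 0.08, -0.03 and -0.08. The endothelial sum was 138 to 153 CPM in wild-type and 136 to 160 CPM in knockout brains. The mural sum was 358 to 644 and 355 to 617 CPM, and the meningeal sum was 121 to 147 and 104 to 157 CPM. The groups overlapped in all 3 sums, unlike those of Foxf2. The part of these cells in the Foxf2 values was not tested.

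Genes with levels like those of Foxf2 in brain were found in the same way. Among 16716 brain genes at a mean of 1 CPM or more, the closest to Foxf2 over the 6 brains were Naa40, Gm26910, Pecam1, Gm37423 and BX649560.1 (r = 0.99 to 0.97), and 56 (0.335%) had r of at least 0.9. Pecam1, which encodes an adhesion protein of endothelial cells, was 12.5, 13.5 and 12.4 CPM in the wild type and 16.6, 16.8 and 19.8 CPM in the knockout (log2 fold change 0.47 ± 0.12, edgeR adjusted p = 1.00). Its groups did not overlap, which follows from its likeness to Foxf2 and is no separate result. Cdh5, Kdr, Tek, Flt1 and Cldn5, the other endothelial markers above 10 CPM in brain, overlapped between genotypes. The genes closest to Foxc1 were Cped1, 4930405O22Rik, Thumpd2, Adap2 and Cenpu (r = 0.99 to 0.97), and 44 genes had r of at least 0.9.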

How the data were processed

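Total RNA was sequenced from brain and liver, 3 libraries per group. Values are expected counts per gene and library that the authors deposited; 5.06% to 5.71% of values in a library were not whole (tolerance 1e-06). Per the submitters' processing notes, cutadapt, STAR and mm10 were used, with roles not given; how reads were counted, and whether by strand, is not given in the sources used here. Counts were rounded. All 55450 IDs matched GENCODE M21 (GRCm38), from which coordinates, exon lengths and coding sequences were taken.

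Genes kept by filterByExpr (minimum count 10, minimum total 15) were tested with the edgeR 4.0.16 quasi-likelihood test (R 4.3.3, TMM, robust), Benjamini-Hochberg threshold 0.05, on the libraries of each comparison; an adjusted p in the text is from it. CPM use TMM library sizes within a tissue unless the joint scale is named; log2 CPM add 0.5 counts. No 2 replicates agreed within sampling noise (chi-square 27.2 to 228 times its degrees of freedom). Floors and intervals cover counting error only, since reads carry no molecular identifiers.

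Wild-type and knockout libraries share numbers 1 to 3 in the titles. The correlation of same-numbered deviations from group means was 0.28, 0.24 and 0.32 in liver, above 0.1 for each number, and this was taken as pairing; in brain it was 0.54, 0.57 and 0.02, which was not. The alternatives were DESeq2 1.42.0 (size factors, Wald test), library totals, no filter beyond counts, a filter at mean CPM 1, robust estimation off, one fit of all 12 libraries, the replicate number as a block, and each replicate left out.

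The members and gene lists were chosen with earlier results of these data known. Genes named were the 4 members, the 3 nearest tested neighbours on each side, the 5 other forkhead genes highest per kb in each tissue, the 8 genes most like Foxq1 in liver, the 5 most like Foxf2 and Foxc1 in brain, and examples from the lists; 1 gene under this rule is not reported here. The fits were tested on simulated counts.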

Additional observations from a re-analysis of the deposited data

How the results depend on the processing

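The count of 0 genes called between genotypes in brain held under all 14 alternatives, and all calls and directions of Foxq1, Foxf2 and Foxc1 between tissues held in both genotypes. In liver the count was 4 with no low-count filter, 10 with the DESeq2 Wald test, 2 with the replicate block, and 0 to 1 with a library left out; with the replicate block and number 1, 2 or 3 left out of both genotypes it was 2, 2 and 6. The liver value of Foxq1 was 1.17 (adjusted p = 0.0132) with the replicate block, 1.12 to 1.17 with every library kept (adjusted p 0.0132 to 1.00) and 0.58 to 1.83 with a library left out (0.713 to 1.00). The interaction count was 1 with the DESeq2 Wald test and 2 with the replicate block. Reversals were Foxq1 in brain (-0.25 to 0.00852 with a library left out) and A530084C06Rik: in brain -0.51 to 0.14 with a library left out; in liver -0.21 to 0.86, and -0.22 with the replicate block without number 1; between tissues 0.60 (wild type) and 0.23 (knockout) with library totals, and -0.59 to 0.49 in the wild type with a library left out. The causes were not tested. The brain numbers and those across tissues were not taken as pairs, and there the replicate block changed no call of a cluster gene: the brain values were -0.10, 0.39, -0.12 and -0.33 for Foxq1, Foxf2, Foxc1 and A530084C06Rik. At 3 libraries a group, low counts of A530084C06Rik in both tissues and of Foxf2 and Foxc1 in liver limit what can be compared.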
